A study of Mus musculus with 6 samples.

Results

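Pvalb, which encodes the calcium-binding protein parvalbumin, and 9 other genes of GABA-releasing neurons were compared between the brains of hSRY-ON and hSRY-OFF mice. All probes under the gene symbols Pvalb, Sst, Gad1, Gad2, Slc32a1, Npy, Calb2, Vip, Cck and Lhx6 were taken, which gave 13 of the 25697 probes and 10 of the 18138 symbols in the deposited table. Pvalb entered this list because its signal had already been seen to be among those most reduced in hSRY-ON. The others were set beside it as general markers of GABA neurons or markers of interneuron subtypes, mostly other than parvalbumin cells. The difference of Pvalb between the genotypes is therefore given as a description, without a test.

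The series holds 6 arrays of whole brain from male FVB mice at postnatal day 6, with 3 hSRY-OFF and 3 hSRY-ON samples. The study reports that hSRY-ON pups grew more slowly than controls, suckled little and had smaller brains, and that some died before this age. Both groups carried the single-copy Signalox-hSRY transgene at the H11 locus. In hSRY-OFF the transgene was not recombined, so that the CAG promoter, which is active in most tissues, drives the red fluorescent protein DsRed2 and the human SRY stays silent. In hSRY-ON, Cre recombinase carried over from the oocyte of a Ddx4-Cre mother had removed the DsRed2 cassette at the single-cell stage, so that FLAG-tagged human SRY and EGFP are driven in the whole animal, and the hSRY-ON samples used did not carry Ddx4-Cre themselves. The study describes the 3 samples of a group as biological replicates, and litters are not given in the sources used here. The cross that gave the hSRY-OFF samples is not given either, so genotype cannot be told apart from dam or litter. No probe for human SRY was analysed here, and activation of the transgene was not measured on these arrays.

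GABA neurons make their transmitter from glutamate with the glutamate decarboxylases and load it into vesicles with the transporter encoded by Slc32a1. Cortical interneurons are divided by what else they express. Those of the medial ganglionic eminence depend on the transcription factor Lhx6 and become parvalbumin or somatostatin cells, and others carry calretinin, vasoactive intestinal peptide, cholecystokinin or neuropeptide Y. Parvalbumin buffers calcium in fast-spiking cells, appears in cortical interneurons late in their postnatal maturation, and is also made by Purkinje cells of the cerebellum and by fast skeletal muscle. In whole brain, fewer cells of a type and less RNA per cell cannot be told apart. Which cells gave the Pvalb signal at postnatal day 6 was not tested.

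The arrays were alike in brightness, with median deposited signals of 200.2 to 219.8 and 13816 to 14377 probes above background (detection p-value under 0.05) per array. Signals below are background-corrected, quantile-normalized log2 values. Probes above background on at least 3 of 6 arrays were tested with limma, which left 14215 probes, and 308 of them (2.17%) differed at an adjusted p under 0.05. Of 9 listed pan-neuronal genes in the table, 7 were tested and none of these passed (limma, 0 at an unadjusted p under 0.05, beside 21.5% of all symbols). The probes of Snap25 and Nefl, genes of neurons in general, were not above background on any array.

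Pvalb lies at chr15:78191112-78206400 in the mouse assembly GRCm38.p6, on the minus strand, and RefSeq gives it starts at each of 2 positions. The 250 bases before each of these starts are shown, as Pvalb is the gene the list was built on. Human SRY, which is driven only in hSRY-ON, is a DNA-binding factor. The window of Sst, a gene of the sister interneuron class, is shown for contrast, as it holds a match. The sequences were searched on both strands for AACAAT, the core word bound by SRY and related SOX proteins, and its reverse complement ATTGTT, which is in capitals where present.
Pvalb, upstream start, chr15:78206401-78206650, minus strand: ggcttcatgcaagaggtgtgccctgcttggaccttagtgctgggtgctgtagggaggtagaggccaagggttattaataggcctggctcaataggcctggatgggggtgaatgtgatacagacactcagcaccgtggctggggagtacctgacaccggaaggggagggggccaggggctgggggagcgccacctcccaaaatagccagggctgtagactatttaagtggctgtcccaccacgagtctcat
Pvalb, downstream start, chr15:78204238-78204487, minus strand: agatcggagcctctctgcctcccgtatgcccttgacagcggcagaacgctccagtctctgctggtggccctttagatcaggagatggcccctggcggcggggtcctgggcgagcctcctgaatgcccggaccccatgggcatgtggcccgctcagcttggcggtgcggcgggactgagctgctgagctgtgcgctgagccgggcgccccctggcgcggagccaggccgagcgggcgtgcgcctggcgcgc
Sst, chr16:23890845-23891094, minus strand: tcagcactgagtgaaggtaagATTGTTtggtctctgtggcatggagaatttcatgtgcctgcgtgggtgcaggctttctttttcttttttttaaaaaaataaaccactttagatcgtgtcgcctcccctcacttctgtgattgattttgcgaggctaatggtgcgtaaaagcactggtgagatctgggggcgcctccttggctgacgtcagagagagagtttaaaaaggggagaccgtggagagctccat
Neither Pvalb window holds the word, and the Sst window holds 1 match. Of the 12 windows found for 9 of the 10 genes, 2 hold a match, in Sst and in 1 of the 3 windows of Lhx6. The word occurs in 9.42% of the 32851 windows of the same length in the RefSeq table. A match is a run of letters and not a measured binding site, and a window without one shows only that these letters are not there. The choice of word and window was made after the expression values were known.

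The Pvalb probe (ILMN_1218223) was above background on all 6 arrays. In hSRY-OFF its deposited signals were 1954, 2081 and 1586, in the order of replicates 1 to 3 that is kept throughout, and in hSRY-ON they were 842, 769 and 879. After normalization the log2 values were 10.64, 10.94 and 10.55 in hSRY-OFF and 9.41, 9.35 and 9.57 in hSRY-ON. Each hSRY-ON array lay below each hSRY-OFF array on both scales. Pvalb averaged 10.71 ± 0.21 (SD, n = 3) in hSRY-OFF, compared with 9.44 ± 0.12 (SD, n = 3) in hSRY-ON. The log2 fold change, hSRY-ON minus hSRY-OFF, was -1.27 (SE 0.12), a 2.41-fold lower normalized signal in hSRY-ON. Pvalb was picked from the 188 probes called lower (1.32% of those tested), all without overlap between the groups. By size of the difference it was the fifth of these, between Ccl21c at -1.31 and Mfap4 at -1.22. Without any condition on the call, 7 of the 14215 tested probes had a larger decrease.

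The genes for making and loading GABA that could be measured were not called, and their log2 fold changes were at most 0.19. Gad1, which encodes the larger glutamate decarboxylase, was read by a pair of probes. The brighter Gad1 probe (ILMN_1234988) had 12.13, 12.07 and 11.83 in hSRY-OFF and 12.23, 12.06 and 12.06 in hSRY-ON, a log2 fold change of 0.11 (SE 0.11, limma adjusted p 0.609). The dimmer Gad1 probe (ILMN_2621743) had 11.06, 10.39 and 10.69 in hSRY-OFF and 10.97, 10.84 and 10.89 in hSRY-ON, a log2 fold change of 0.19 (SE 0.16, limma adjusted p 0.554). At both probes the groups overlapped and hSRY-OFF was the more variable group. Slc32a1 (ILMN_1234039), the vesicular GABA transporter, had 13.21, 13.11 and 13.07 in hSRY-OFF and 13.21, 13.05 and 13.10 in hSRY-ON. Its log2 fold change was -0.01 (SE 0.08, 95% interval -0.21 to 0.19, limma adjusted p 0.965), and its sign turned when any of 3 arrays was omitted, so it has no settled direction. Gad2, the smaller decarboxylase, was represented by 1 probe (ILMN_2668908), which was not above background on any array and has no fold change.

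**Figure D1:**
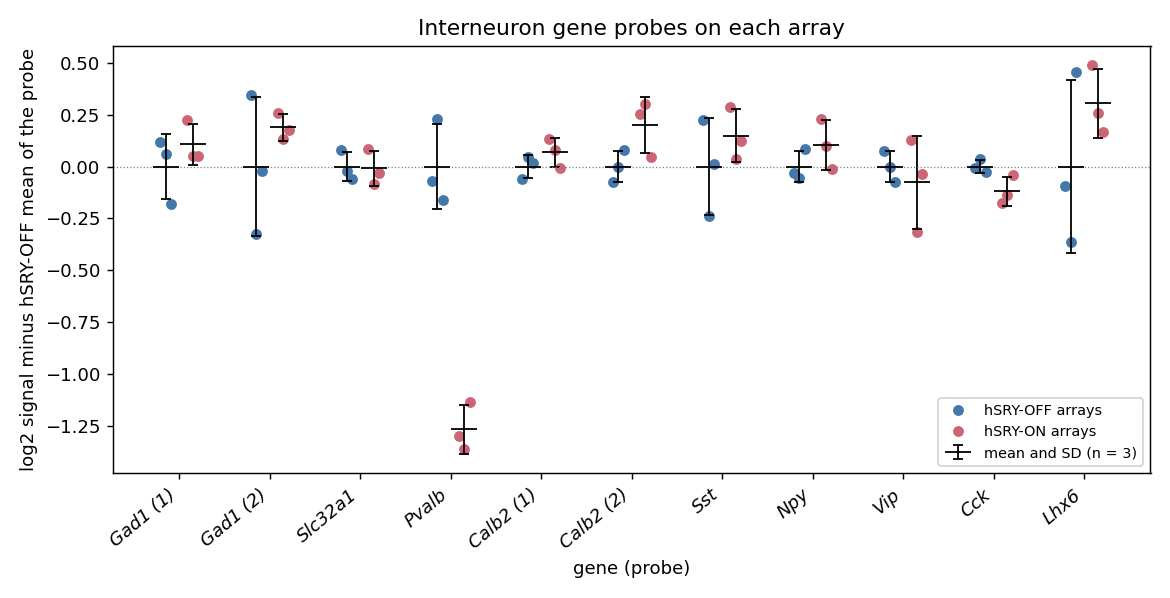
Normalized log2 signal of each tested probe of the interneuron genes on each array, minus the hSRY-OFF mean of that probe, with blue points for the 3 hSRY-OFF arrays, red points for the 3 hSRY-ON arrays and black lines for mean and SD. The Pvalb points of hSRY-ON lie between -1.36 and -1.14, while the group means of the other probes differ by at most 0.30 in size.

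Calb2, which encodes the calcium-binding protein calretinin of a different set of interneurons, was called at neither of its probes. Its brighter probe (ILMN_2827729) had 12.63, 12.74 and 12.71 in hSRY-OFF and 12.83, 12.77 and 12.69 in hSRY-ON, a log2 fold change of 0.07 (SE 0.08, limma adjusted p 0.673). The other Calb2 probe (ILMN_2597412) had 11.16, 11.23 and 11.31 in hSRY-OFF and 11.49, 11.54 and 11.28 in hSRY-ON, a log2 fold change of 0.20 (SE 0.10, limma adjusted p 0.289). The groups overlapped at both Calb2 probes, through hSRY-ON array 3, which was the lowest of its group at each.

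None of the 4 neuropeptide genes was called. Sst (ILMN_2729826), which encodes somatostatin, had 12.63, 12.16 and 12.42 in hSRY-OFF and 12.69, 12.44 and 12.52 in hSRY-ON, a log2 fold change of 0.15 (SE 0.13, 95% interval -0.17 to 0.47, limma adjusted p 0.571). Npy (ILMN_2946520), neuropeptide Y, had 11.98, 11.96 and 12.10 in hSRY-OFF and 12.24, 12.11 and 12.00 in hSRY-ON, a log2 fold change of 0.10 (SE 0.09, limma adjusted p 0.567). In both of these genes the groups overlapped. Vip, vasoactive intestinal peptide, was measured by 1 of its 2 probes. That probe (ILMN_2943387) ran from 6.93 to 7.08 in hSRY-OFF and had 7.13, 6.69 and 6.97 in hSRY-ON, a log2 fold change of -0.08 (SE 0.12, limma adjusted p 0.774), with hSRY-ON array 2 the lowest and hSRY-ON array 1 the highest of all 6. The second Vip probe (ILMN_1243637) was not above background on any array.

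Cck (ILMN_1252990) encodes cholecystokinin, which excitatory cortical neurons also make. It had 11.43, 11.47 and 11.41 in hSRY-OFF and 11.26, 11.30 and 11.40 in hSRY-ON. Its groups did not overlap, with the highest hSRY-ON array just under the lowest hSRY-OFF array. The log2 fold change of -0.12 (SE 0.08, 95% interval -0.30 to 0.06) did not pass (limma adjusted p 0.426). Lhx6 (ILMN_2774910), the transcription factor of parvalbumin and somatostatin precursors, was close to background and was detected on 4 of the 6 arrays. It had 5.34, 5.08 and 5.89 in hSRY-OFF and 5.92, 5.70 and 5.61 in hSRY-ON, a log2 fold change of 0.30 (SE 0.21, 95% interval -0.18 to 0.79, limma adjusted p 0.444), and the groups overlapped. The hSRY-OFF arrays of Lhx6 spread more widely than those of any other tested probe of the list, with an SD of 0.42.

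Of the 13 probes, 11 passed the filter on dim probes, for 9 of the 10 genes. Pvalb was the 1 probe of the 11 that was called, beside 2.17% of all tested probes. Because Pvalb was chosen on this contrast, nothing is read from that count, which was 0 with the replicate block and in the 5 fits without 1 array other than hSRY-ON array 3. At the other 10 probes, 7 log2 fold changes were above 0 and 3 below. None of the 10 had an unadjusted p under 0.05 in limma, beside 2978 of the 14215 tested probes. The median log2 fold change of the 10 was 0.11, beside 0.0048 over all tested probes. That median was 0.05 without hSRY-OFF array 2 and 0.05 without hSRY-ON array 1. Their 95% intervals all held 0, with lower bounds from -0.37 to -0.03 and upper bounds from 0.06 to 0.79. The groups did not overlap at 2 of the 11 probes, Pvalb and Cck, beside 27.7% of all tested probes.

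**Figure D2:**
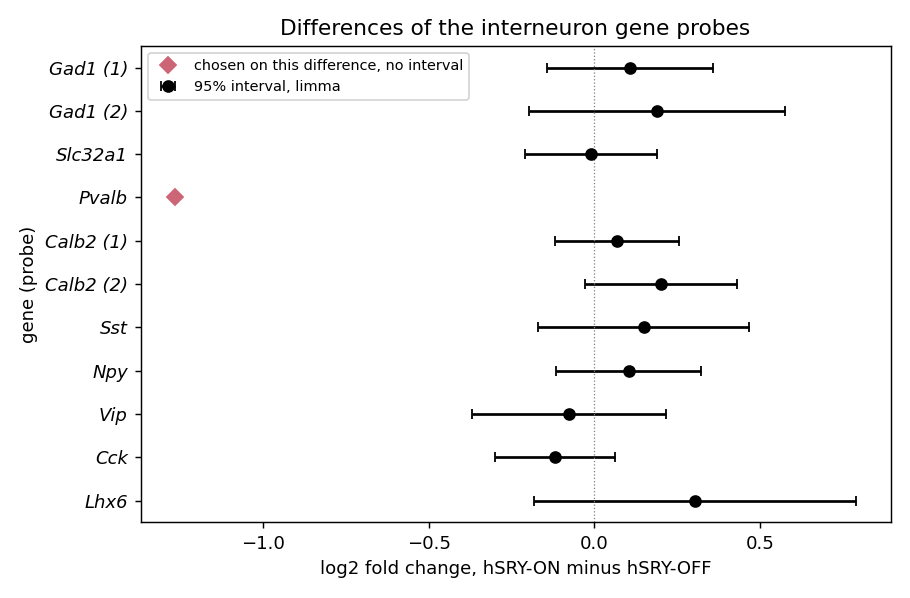
Log2 fold change of each tested probe of the interneuron genes, hSRY-ON minus hSRY-OFF, with the 95% interval of the limma fit. The intervals of 10 probes hold 0. Pvalb, the gene the list was built on, is the diamond at -1.27 and is drawn with no interval.

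To set Pvalb against the pan-GABA markers within each array, every probe was centred on its hSRY-OFF mean, and the mean of Gad1 (both probes averaged) and Slc32a1 was subtracted from Pvalb. Gad2 could not enter because it was not above background. The resulting log2 values were -0.23, 0.31 and -0.08 in hSRY-OFF, and they were -1.46, -1.37 and -1.18 in hSRY-ON. The groups were apart, with a mean of -1.34 ± 0.14 (SD, n = 3) in hSRY-ON against 0 ± 0.28 (SD, n = 3) in hSRY-OFF. The pan-GABA mean itself was 0.07 higher in hSRY-ON, less than the SD of 0.14 among hSRY-OFF arrays. Set against the mean of the peptide genes Sst, Npy, Vip and Cck in the same way, Pvalb was -1.28 ± 0.14 (SD, n = 3) in hSRY-ON. The peptide mean differed by 0.01 between the groups. These are ratios within an array, and since they are built on the Pvalb values that chose the gene, the distance between the groups is a description.

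Genes that were most like Pvalb over the 6 arrays were sought among all tested probes, by the root mean square difference between log2 values centred on each probe's own mean. The nearest was Mfap4, a microfibril-associated protein gene, at 0.13, followed by Mobp, a myelin gene, at 0.14 and Sgol1 (current symbol Sgo1), which protects chromosome cohesion, at 0.14. Pcp2, a Purkinje cell gene, came next at 0.15, and 3000004C01Rik (current symbol Kif18b), a mitotic kinesin gene, was the fifth at 0.16. All 5 were lower in hSRY-ON, with log2 fold changes from -1.22 to -0.97, a pattern the measure of likeness selects for. The other interneuron genes were farther from Pvalb, from 0.58 for Cck to 0.87 for Lhx6.

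**Figure D3:**
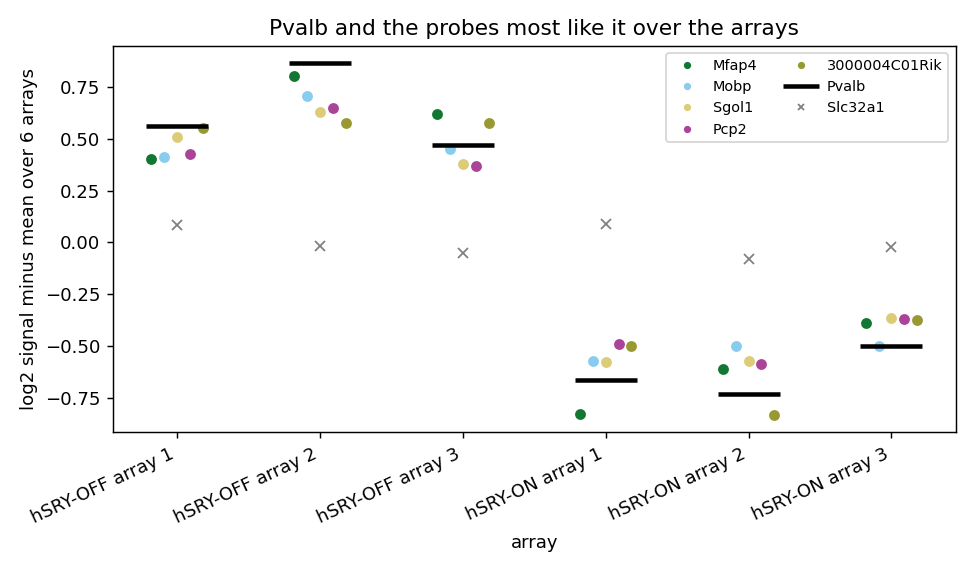
Log2 signal on each array minus the mean over 6 arrays, for Pvalb (black bars), the 5 probes nearest to it (coloured points) and Slc32a1 (grey crosses). The 5 probes were chosen for following Pvalb, and Slc32a1 stays within 0.1 of its own mean.

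Pvalb is also a product of Purkinje cells and of fast muscle, and marker lists of these were read beside it. Of 13 Purkinje genes in the table, 10 were tested and 1 was called, Pcp2, beside 2.39% of all symbols at their brightest probe. Pcp2 had 10.60, 10.82 and 10.54 in hSRY-OFF and 9.68, 9.58 and 9.80 in hSRY-ON, so the groups did not overlap. It fell by 0.97 on the log2 scale (SE 0.11, limma adjusted p 0.0243), and the call was lost under the replicate block and in the 5 fits without 1 array other than hSRY-ON array 3. Itpr1, the calcium release channel abundant in Purkinje cells, had a log2 fold change of -0.28 (limma adjusted p 0.114), and the glutamate transporter gene Slc1a6 one of -0.26 (limma adjusted p 0.171). On the other side were Aldoc, an aldolase gene that astrocytes also express, at 0.28 (limma adjusted p 0.105), and Rora, a nuclear receptor gene, at 0.23 (limma adjusted p 0.241). The groups did not overlap in 5 of the 10 genes, Pcp2, Itpr1, Slc1a6, Aldoc and Rora, beside 29% of all symbols, and Itpr1 and Aldoc each passed in 2 alternatives. Lhx1 and Lhx5, which Purkinje cells express from early on, had log2 fold changes of -0.08 and -0.02. Over the 10 genes the median was -0.10, with 7 lower and 3 higher, and it ran from -0.16 without hSRY-OFF array 1 to -0.03 without hSRY-OFF array 2. The summed linear signal was 16445 to 17468 in hSRY-OFF and 16671 to 17891 in hSRY-ON, with Aldoc the brightest probe in it. The probes of Calb1, Pcp4 and Ppp1r17 were not above background on any array. The part of Purkinje cells in the lower Pvalb signal was not tested.

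Of 17 skeletal muscle genes in the table, 8 were tested and 6 (Ckm, Tnnc2, Myh1, Myh2, Myh4 and Casq1, defining genes of mature muscle fibres) were not above background on any array. The other 3, Mylpf, Tnnt3 and Atp2a1, were detected on at most 2 arrays. Of the 8 tested, 4 were above 0 and 4 below, with a median of -0.09 that was 0.18 over the 4 genes left by the stricter filter and 0.04 without hSRY-ON array 1. Myl1, a fast-muscle myosin light chain gene, had a log2 fold change of -0.39 (limma adjusted p 0.188), and its groups did not overlap. Myog, a muscle differentiation factor gene, had -0.32 (limma adjusted p 0.563) and passed as lower without hSRY-ON array 3. The 1 called muscle gene was Acta1, an actin, which was higher in hSRY-ON by 0.43 (SE 0.08, limma adjusted p 0.0479), where 0.91% of all symbols were called higher. The call of Acta1 was lost with median scaling, with no filter, with the replicate block and without any 1 array, and the summed signal of the 8 genes was 1412 to 1467 in hSRY-OFF and 1524 to 1702 in hSRY-ON. Of 9 sensory ganglion genes, 4 were tested and 0 called (limma, 2 at an unadjusted p under 0.05, beside 21.5% of all symbols). Isl1, a factor also used elsewhere in the brain, had 0.43 (limma adjusted p 0.139) and passed in 2 alternatives, and Avil, Scn10a, Trpv1, P2rx3 and Runx3 were not above background on any array.

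Parvalbumin cells take on further proteins as they mature, among them fast potassium and sodium channels, neurofilaments and the perineuronal net. Of 22 such genes in the table, 19 were tested, with a median log2 fold change of -0.17, beside 0.0004 over all symbols. The median was -0.05 without background correction, -0.09 with normexp on the signals and -0.10 without hSRY-ON array 3. With the stricter filter, which kept 13 of the genes, it was -0.02, with 6 higher and 7 lower. In the reported fit there were 13 lower and 6 higher, and 2 were called, both lower, where 1.48% of all symbols were called lower. In limma 7 of the 19 had an unadjusted p under 0.05, beside 21.5% of all symbols. The groups did not overlap in 6 lower and 3 higher genes, beside 29% of all symbols. Scn4b, a sodium channel subunit that supports fast firing, had 7.46, 7.47 and 7.53 in hSRY-OFF and 6.52, 6.76 and 6.94 in hSRY-ON. It fell by 0.75 (SE 0.12, limma adjusted p 0.0348), with no overlap, and ranged from -0.85 to -0.36 over the alternatives. Spp1, which encodes the secreted protein osteopontin and is made by other cells as well, had 6.32, 6.50 and 6.31 in hSRY-OFF and 5.50, 5.33 and 5.77 in hSRY-ON. It fell by 0.84 (SE 0.13, limma adjusted p 0.0327), also with no overlap, at signals near background. Over the alternatives that tested Spp1 its log2 fold change ranged from -0.97 to -0.25. Both calls were lost with the replicate block and in the 5 fits without 1 array other than hSRY-ON array 3, that of Scn4b also with no filter on dim probes and that of Spp1 also with the stricter filter. Cplx1 passed as lower in 3 alternatives and Scn1a as higher in 2.

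Other genes of the same list that did not pass went both ways. The potassium channel genes Kcna1 and Kcnc1 had log2 fold changes of -0.55 (limma adjusted p 0.129) and 0.14 (limma adjusted p 0.320). The synaptic gene Cplx1 had -0.30 (limma adjusted p 0.0866), and the tested perineuronal net genes Hapln4, Acan, Hapln1, Ncan and Bcan had -0.36, -0.33, -0.17, -0.05 and 0.07 (limma adjusted p from 0.183 to 0.755). Scn1a, the sodium channel of fast-spiking cells, lay on the other side at 0.47 (limma adjusted p 0.164), with hSRY-ON arrays of 8.86, 9.16 and 8.50 against 8.27 to 8.44 in hSRY-OFF.

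None of the transcription factors that specify interneurons was called. Of 18 in the table, 13 were tested, 10 of them above 0 and 3 below, with a median log2 fold change of 0.19 (0.09 without background correction and 0.12 without hSRY-ON array 1), and 0 passed (limma, 4 at an unadjusted p under 0.05, beside 21.5% of all symbols). Sp8, a factor of caudal and olfactory interneurons, had 6.18, 6.31 and 6.08 in hSRY-OFF and 6.61, 6.67 and 6.72 in hSRY-ON, a log2 fold change of 0.47 (SE 0.09, limma adjusted p 0.0501). Prox1, which also marks hippocampal granule cells, had a log2 fold change of 0.46 (SE 0.10, limma adjusted p 0.0698). Dlx1 and Dlx2, which drive the GABA neuron fate, had 0.19 (limma adjusted p 0.210) and 0.42 (limma adjusted p 0.209). In these 4 of the 13 genes every hSRY-ON array lay above every hSRY-OFF array, as in 13.7% of all symbols. Sp8 and Prox1 both passed under a stricter filter, detection at p under 0.01 on each of the 6 arrays. Prox1 alone passed without background correction, with normexp on the signals or with a trend and robust prior, and Sp8 alone with array quality weights. The probes of Dlx5, Sox6 and Gsx2 were among those not above background on any array.

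Other lists around the GABA neuron held 0 called genes in the reported fit, and their counts at an unadjusted p under 0.05 stand beside 21.5% of all symbols. Of 13 tested markers of further interneuron subtypes, 6 were above 0 and 7 below, from -0.19 to 0.17, with 0 at an unadjusted p under 0.05 in limma. Of 6 tested genes of GABA uptake and breakdown, 3 were above 0 and 3 below, and the 2 with an unadjusted p under 0.05 were the transporters Slc6a12 (0.49, limma adjusted p 0.132) and Slc6a13 (0.25, limma adjusted p 0.171). Of 8 tested genes listed under interneuron migration, 5 were above 0 and 3 below (limma, 3 at an unadjusted p under 0.05). They ran from -0.61 for Ccnd2, a cyclin gene of the cell cycle, to 0.25 for the receptor gene Nrp1. Ccnd2 (limma adjusted p 0.0698) passed in 4 alternatives and Slc6a12 in 1, without hSRY-ON array 3. The receptors for the peptides had 5 tested genes, all below 0 in the reported fit, with a median of -0.27 and 2 at an unadjusted p under 0.05 in limma, Sstr1 (-0.33, adjusted p 0.160) and Npy5r (-0.27, adjusted p 0.213). That median was -0.12 without background correction and -0.12 without hSRY-ON array 3, and 1 of the 5 was above 0 with array quality weights and in 3 of the 6 fits that omitted an array. Of 14 tested EF-hand genes, relatives of parvalbumin by their calcium-binding fold, 5 were above 0 and 9 below, with a range of -0.56 to 0.36 (limma, 4 at an unadjusted p under 0.05), and Hpca and S100a1 passed as lower with the trend and robust prior.

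Striatal projection neurons, which are GABA neurons but no interneurons, had 9 tested genes, 7 above 0 and 2 below, with 0 called (limma, 2 at an unadjusted p under 0.05, beside 21.5% of all symbols). Their median was 0.10, and it was 0.05 without background correction and from 0.06 to 0.16 without 1 array. Bcl11b, a factor of these and of deep-layer cortical neurons, had 0.40 (limma adjusted p 0.0672) and passed in 4 alternatives, and Foxp1 had 0.27 (limma adjusted p 0.141) and passed in 2. Glutamatergic neurons had 9 tested genes with a median of 0.0060, 5 above 0 and 4 below, and the median ran from -0.14 to 0.09 without 1 array. The 1 called, beside 2.39% of all symbols, was the vesicular zinc transporter gene Slc30a3. It fell by 0.71 (SE 0.13, limma adjusted p 0.0462), and its call was lost with no filter on dim probes, with the replicate block and without any 1 array. Over the alternatives Slc30a3 ranged from -0.79 to -0.29. Slc17a7, a vesicular glutamate transporter gene, had a log2 fold change of -0.63 (SE 0.13, limma adjusted p 0.0595) with no overlap, and it passed as lower in 5 alternatives.

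**Figure D4:**
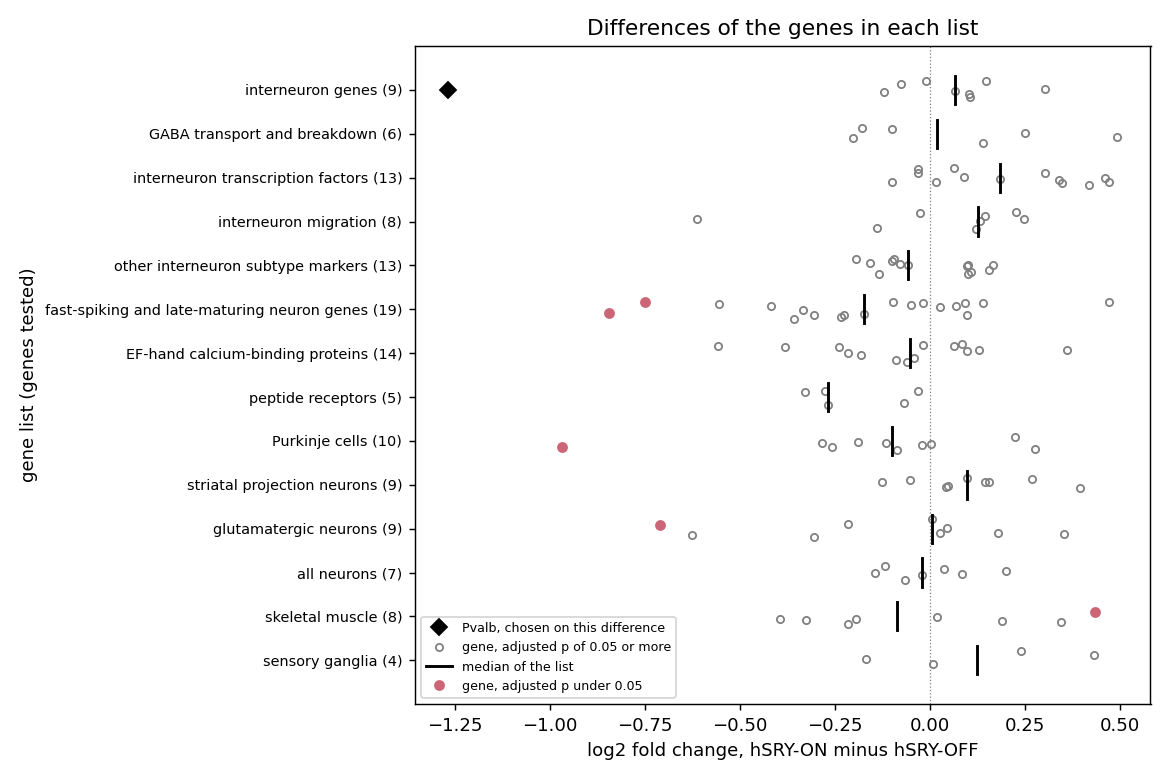
Log2 fold change of each tested gene, hSRY-ON minus hSRY-OFF, at its brightest probe, by gene list, with filled points for genes at an adjusted p under 0.05 in limma and black bars for the list medians. Pvalb, on which the list was built, is the diamond at -1.27 among the interneuron genes, and Spp1 at -0.84 and Scn4b at -0.75 are those among the fast-spiking and late-maturing neuron genes.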

How the data were processed

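Total RNA of whole brain from 3 hSRY-OFF and 3 hSRY-ON males was hybridized to Illumina mouse bead arrays. The authors deposited a table of mean bead signal intensity for each probe and array, on a linear scale and not normalized, with a detection p-value against the negative-control beads. The study's own normalization with the R package TCC was not used here. In R 4.3.3 with limma 3.58.1, intensities were corrected with normexp (offset 16, negative controls inferred from the detection p-values), put on the log2 scale and quantile normalized. Probes detected at p under 0.05 on 3 or more of 6 arrays were fitted with group as the only term (lmFit, eBayes, two-sided, Benjamini-Hochberg over all tested probes). The steps were tested on simulated data. For gene lists, the brightest tested probe stood for a gene, and older symbols were matched through the RefSeq table of GRCm38.p6. The power of the tests is limited by the number of arrays, 3 per group.

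Named are all probes of the 10 genes, called genes and defining genes of the other lists, and the 5 genes most like Pvalb. Other genes given with values in a list were chosen after their values were seen, and some list genes are counted but not reported here by name. The members and lists were chosen with earlier results of these data known. Alternatives were other background corrections, normalizations, filters, a prior, array weights, a replicate block and leaving out each array. Equal replicate numbers gave little sign of pairing, as their deviations from the group means correlated at 0.03 to 0.04 over probes. For unequal numbers these correlations were -0.023 to -0.0054. Figures were drawn with matplotlib 3.10.9.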

Additional observations from a re-analysis of the deposited data

How the results depend on the processing

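The difference of Pvalb ranged from -1.35 to -1.11 over all alternatives and from -1.35 to -1.15 when 1 array was left out. Less the mean difference of Gad1 and Slc32a1 it ranged from -1.45 to -1.17. The number of called interneuron gene probes was 1 in the reported fit, 0 with the replicate block and 0 to 1 without 1 array, with 1 kept only without hSRY-ON array 3. The number called over all probes was 308 as reported, 1317 without background correction, 860 with normexp on the signals and an offset of 50, 123 with no filter, 705 when all 6 arrays had to have a detection p-value under 0.01, 1447 with a trend and robust prior, 480 with array quality weights, 0 with the replicate block (limma, 2906 at an unadjusted p under 0.05) and 0 to 417 without 1 array (2236 to 3150 at an unadjusted p under 0.05). The block adds a replicate number that gave little sign of pairing the arrays, and by construction it leaves the fitted differences as they were. The cause of these shifts was not tested.

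Of 110 values of the other 10 probes under the alternatives that can change a fitted difference, 106 kept their direction, and none passed under any alternative. Leaving out 1 array gave Slc32a1 values of -0.0568 to 0.0306, above 0 when the array left out was replicate 1 of hSRY-OFF or replicate 2 or 3 of hSRY-ON. Vip ranged from -0.178 to 0.0452 in the same way and was above 0 when hSRY-ON array 2 was left out. Lhx6, near background, ranged from 0.08 to 0.53. Other differences also shrank without 1 array. Sst was 0.03 and the dimmer Gad1 probe 0.03 without array 2 of hSRY-OFF, and the brighter Gad1 probe was 0.02 without array 3 of hSRY-OFF. Without array 1 of hSRY-ON, Npy and the brighter probes of Calb2 and Gad1 were 0.04, 0.04 and 0.05. With the probes of a gene averaged, Gad1 and Calb2 kept their sign.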
